A study of Mus musculus with 12 samples.

Results

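The brain of chitosan-treated mice was compared with that of mock-treated mice on day 3 after injection. This comparison rests on 6 of the 12 arrays in the series, 3 from chitosan brains and 3 from mock brains, and the other 6 arrays are from stomach. Chitosan mice received 0.2 g/kg chitosan oligosaccharide lactate by subcutaneous injection, and mock mice received saline. All mice were males of 6 to 8 weeks on the FVB background and carried 1 transgene allele, in which tandem PPAR response elements and the tk promoter drive luciferase, so both groups share the transgene. Within the brain, each array holds RNA from an independent mouse. RNA was taken from brain without further dissection being described, so fewer cells of a type and less RNA per cell cannot be told apart in any value below.

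Values are Cy5 intensities of 29922 probes, on a linear scale, and differences are means of log2 intensities, chitosan minus mock. The lowest intensities were 34.4 to 34.6 and the medians 47.3 to 47.8 on the 6 arrays, so that most probes lay near the floor and the size of a difference is compressed there. Below, expressed means a group mean of at least 68.8 in chitosan or mock brains, which is 2 times the lowest intensity, and 3498 probes met this. Pearson correlations of log2 values were 0.803 to 0.943 between chitosan arrays and 0.899 to 0.934 between mock arrays, and chitosan array 3 had the lowest values of the chitosan group. The arrays also differed in how many distinct intensities they hold, with 648, 947 and 447 on the chitosan arrays and 357, 308 and 382 on the mock arrays. These numbers do not overlap between the groups. The tissue label was checked against markers. The synaptic gene Snap25 read 5174, 5976 and 3647 in chitosan brains and 3951, 4953 and 5976 in mock brains. Of the 18 stomach markers, 9 pituitary markers and 7 blood cell markers measured, 0 were expressed.

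PPARs are nuclear receptors that pair with retinoid X receptors and bind response elements built from copies of the motif AGGTCA near their target genes. They are known as regulators of fatty acid oxidation, lipid storage and inflammation, and in the brain they are found in neurons and glia. Among the genes described below, neuropeptide precursors are cleaved to signals such as enkephalin and thyrotropin-releasing hormone, and many of them mark particular brain regions, so that a whole-brain sample reads the mixture of regions it contains.

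The bases before the start of 2 genes are shown as examples, and no expression result below rests on them. Of the genes that stayed 2-fold higher whichever array was left out, Nnat had the largest difference, and Trh was the neuropeptide gene with the smallest p. Sequences are from RefSeq on GRCm38.p6, 250 bases each, 5′ to 3′ on the strand of the gene, and capitals mark the motif AGGTCA on either strand. The Nnat stretch lies at chr2:157559828-157560077 on the plus strand and the Trh stretch at chr6:92244651-92244900 on the minus strand.
Nnat: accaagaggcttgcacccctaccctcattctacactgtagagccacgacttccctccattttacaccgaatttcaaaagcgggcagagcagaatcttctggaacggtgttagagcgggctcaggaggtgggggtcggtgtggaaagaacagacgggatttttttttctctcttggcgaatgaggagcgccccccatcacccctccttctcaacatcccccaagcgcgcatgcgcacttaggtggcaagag
Trh: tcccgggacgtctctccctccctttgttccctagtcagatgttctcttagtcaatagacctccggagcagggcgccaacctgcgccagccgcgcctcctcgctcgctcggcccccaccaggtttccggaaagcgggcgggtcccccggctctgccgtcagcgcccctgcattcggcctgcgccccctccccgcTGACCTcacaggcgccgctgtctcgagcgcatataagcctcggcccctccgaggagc
The motif was found in 14% of the 32851 promoters of this length. It was found for 2 of the 21 genes with a promoter among 26 genes searched, namely Trh and Cers2 (Lass2 in the array annotation). These 26 are the genes chosen for stability or smallest p, together with Nrgn, Cnih2, Dlgap3 and Arc of the postsynaptic list. A gene counts here when any of its promoters holds the motif, whereas the 14% counts single promoters. A direct repeat of the motif with 1 base between the copies was found in 0.0335% of all promoters and in 0 of these genes. The search covered both strands. A match describes the letters and says nothing of binding.

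No probe passed limma's test on the 6 arrays at a Benjamini-Hochberg adjusted p under 0.05 (0 of 29922, 0%), and the smallest adjusted p was 0.0582. At an unadjusted p under 0.05, 1014 probes were higher and 931 lower in chitosan brains. A 2-fold difference of the mean log2 values, which is not a test, was met by 62 probes in the higher direction (0.207% of all probes) and by 48 in the lower direction (0.16%), and as a ratio of the linear group means by 109 and 76. These 110 probes were set against every single array. A 2-fold difference remained whichever of the 6 arrays was left out for 8 higher probes (0.0267%), 6 of them named, and for 11 lower probes (0.0368%), 9 of them named. In 48 higher and 28 lower probes the brightest array was at least 3 times brighter than the next of the 6. The remaining probes were 4 higher and 9 lower whose groups did not overlap, and 2 higher whose groups did. Over all probes, every chitosan array lay above every mock array for 1495 (5%), and below for 2032 (6.79%).

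The count of calls depended on single arrays and on the model. Without chitosan array 3, the array with the lowest correlations, limma called 221 probes, among them 20 of the genes described here. Without mock array 1, limma called 1 probe. Without mock array 2, mock array 3, chitosan array 1 or chitosan array 2, it called 0 probes each time. With all 12 arrays sharing 1 estimate of the spread it called 3, and with the number of distinct intensities as a covariate in that model 464. The genes called without chitosan array 3 are named with their adjusted p beside their values, and their differences were computed from 2 chitosan and 3 mock arrays there. Those adjusted p hold for that leave-out only, and with no brain array left out limma called 0 probes.

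Of the 6 named genes that were 2-fold higher in every leave-out, Nnat showed the largest difference. Nnat encodes neuronatin, a small imprinted membrane protein of the developing and adult brain. Its intensities were 324, 271 and 343 in chitosan brains, against 92.3, 113 and 87.7 in mock brains, a difference of 1.68 ± 0.33 (SE, limma adjusted p = 0.54). The 2 groups were widely separated, and the leave-out values ranged between 1.61 and 1.79. Sepw1 (now Selenow), which encodes a small selenoprotein of the thioredoxin-like fold, read 1106, 1209 and 805 in chitosan brains, against 354, 351 and 357 in mock brains (1.53 ± 0.38, SE). The mock arrays were almost identical here and the spread lay within the chitosan group. Crym, for the thyroid hormone-binding protein mu-crystallin, read 135, 146 and 85.5 in chitosan brains, against 46.4, 46 and 45 in mock brains (1.38 ± 0.21, SE). All mock values of Crym were below the median of their array, so the size of its difference is a compressed one.

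Mlf2, myeloid leukemia factor 2, read 2151, 2557 and 4953 in chitosan brains, against 884, 1325 and 972 in mock brains (1.53 ± 0.33, SE). Aplp1, an amyloid precursor-like protein of neurons, read 2004, 1188 and 2390 in chitosan brains, against 772, 946 and 617 in mock brains (1.22 ± 0.33, SE), and its leave-out minimum of 1.01 was at the edge of the criterion. These were the brightest genes of the group, and chitosan array 3 was their highest array. Aes (now Tle5), a short Groucho-family corepressor, read 144, 168 and 105 in chitosan brains, against 50.1, 58.2 and 69.6 in mock brains (1.21 ± 0.23, SE). None of the 6 genes has another probe. Their limma adjusted p ranged between 0.329 (Crym) and 0.732 (Aplp1). Without chitosan array 3, limma called Crym (1.62, adjusted p = 0.0345) and Aes (1.40, adjusted p = 0.039).

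Of the 9 named genes that were 2-fold lower in every leave-out, 6 shared most of an order of arrays. Rshl1 (now Rsph6a), a radial spoke protein of cilia and sperm tails, read 231, 114 and 412 in chitosan brains, against 1656, 1817 and 1114 in mock brains (-2.76 ± 0.56, SE, limma adjusted p = 0.54). Spag9, a scaffold that links JNK kinases to kinesin and dynein, read 201, 109 and 210 in chitosan brains, against 1007, 1345 and 805 in mock brains (-2.63 ± 0.48, SE). Lrrn3, a leucine-rich repeat membrane protein of neurons, read 637, 205 and 724 in chitosan brains, against 2532, 3297 and 1691 in mock brains (-2.41 ± 0.53, SE). In each of these genes chitosan array 2 was the lowest and mock array 2 the highest. Without chitosan array 3, limma called Rshl1 (-3.20, adjusted p = 0.0381) and Spag9 (-2.80, adjusted p = 0.0476).

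The same order was seen for Daam2 and Gnas. Daam2, a formin of Wnt signaling, read 207, 93.4 and 244 in chitosan brains, against 811, 1139 and 594 in mock brains (-2.29 ± 0.55, SE). Gnas, the stimulatory G protein alpha subunit from an imprinted locus, read 239, 133 and 317 in chitosan brains, against 990, 1424 and 758 in mock brains (-2.24 ± 0.51, SE). Kif2a, a kinesin that takes microtubules apart at their ends, read 90.2, 53.2 and 105 in chitosan brains, against 360, 334 and 234 in mock brains (-1.94 ± 0.39, SE), with chitosan array 2 again the lowest but mock array 1 the highest. Over all 11 lower probes, chitosan array 2 was the lowest chitosan array in 8, and mock array 2 the highest mock array in 9. In the stomach, 9 of these 11 probes were 2-fold higher with chitosan, the opposite direction, with differences between -0.24 and 2.30 over the 11. The share of all probes that were 2-fold higher in the stomach was not counted, so how unusual this is was not tested.

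The remaining 3 named genes of this set were dimmer. Slc10a7, a member of the bile acid carrier family, read 41.3, 42.6 and 40.8 in chitosan brains, against 109, 126 and 86.2 in mock brains (-1.35 ± 0.15, SE, limma adjusted p = 0.138, and 0.0381 without chitosan array 3), so that chitosan values lay below the array medians. Mpv17l, a relative of a mitochondrial and peroxisomal membrane protein, read 75, 62.8 and 53 in chitosan brains, against 121, 187 and 135 in mock brains (-1.20 ± 0.24, SE). The probe of 4932417H02Rik, an older name of Rptor, the raptor subunit of mTORC1, read 150, 55.3 and 50.6 in chitosan brains, against 189, 166 and 277 in mock brains (-1.46 ± 0.46, SE).

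**Figure D1:**
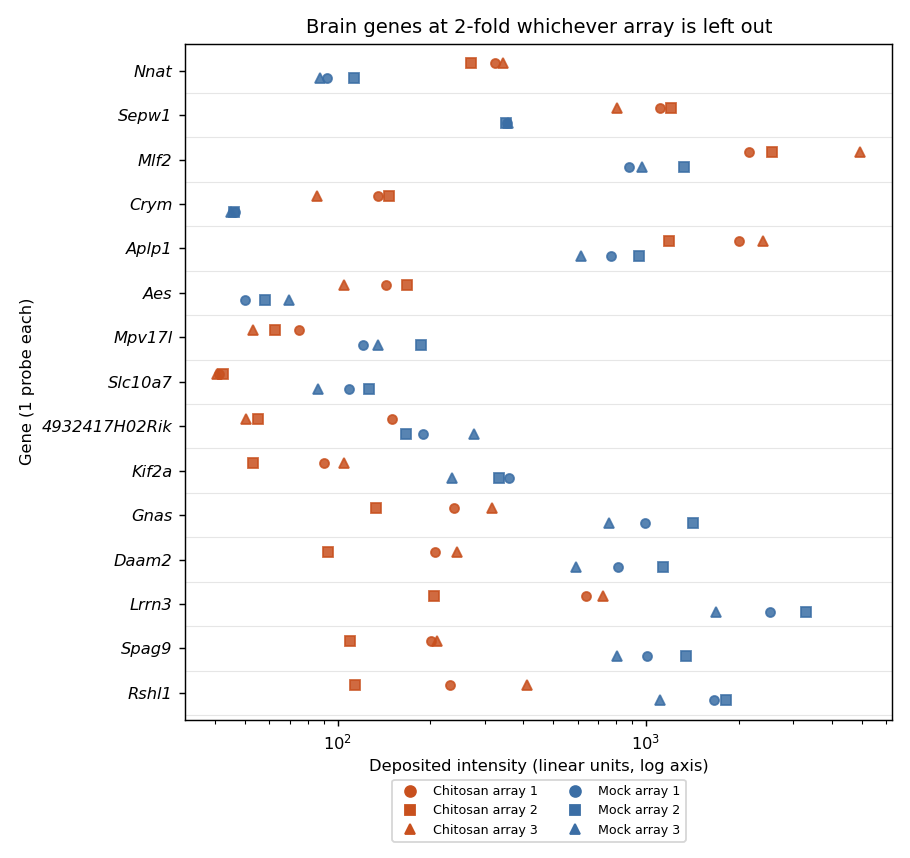
Intensity (linear units, log axis) of the 15 named genes that were at 2-fold whichever brain array was left out, 1 probe a gene. Orange symbols are the 3 chitosan arrays and blue symbols, just below them, the 3 mock arrays, with the same shape for the same array number. For the upper 6 genes the chitosan values lie to the right of the mock values, and for the lower 9 to the left, with chitosan array 2 the leftmost from Kif2a down to Rshl1.

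Where a gene had more than 1 probe, the other probe was used as a check on the same RNA. Of the 85 named probes at 2-fold, 32 belonged to a gene with other probes, 39 in all. Of these 39 other probes, 17 differed in the same direction, 4 did so without overlap between the groups, and 0 reached 2-fold. Of the 39, 10 were expressed and the rest lay near the floor. Among the genes stable in every leave-out, 4 had a second probe and 0 of these were expressed. The second probe of Spag9 read 48.6, 46.4 and 50.6 in chitosan brains, against 50.1, 66.5 and 50.6 in mock brains (-0.19 ± 0.11, SE). That of Gnas differed by -0.08 ± 0.05 (SE) and that of Kif2a by 0.09 ± 0.08 (SE). Mmachc, which acts in vitamin B12 handling, was named after its values were seen because its other probe went the opposite way (1.06 and -0.95).

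**Figure D2:**
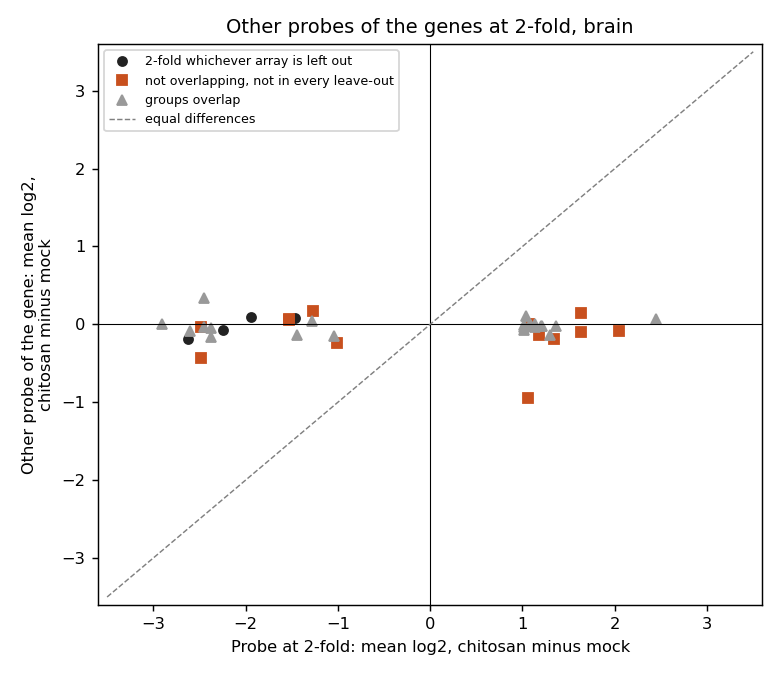
Mean log2 difference, chitosan minus mock, of the 39 other probes (vertical axis) against that of the probe at 2-fold of the same gene (horizontal axis). Black circles are genes at 2-fold in every leave-out, orange squares other genes whose groups do not overlap, and gray triangles genes whose groups overlap. The points lie along the horizontal line at 0 and not along the dashed line of equal differences, and none reaches 2-fold in the direction of the first probe.

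Several bright genes differed without overlap but fell short of 2-fold when 1 array was left out. Fth1, the ferritin heavy chain that stores iron, read 1338, 1935 and 362 in chitosan brains, against 2783, 3239 and 3105 in mock brains (-1.63 ± 0.56, SE), and without chitosan array 3 the difference was -0.92. Nrgn, neurogranin, a calmodulin-binding protein of forebrain dendrites, read 699, 650 and 405 in chitosan brains, against 1042, 1500 and 1134 in mock brains (-1.09 ± 0.36, SE). In Fth1, Nrgn and Calm3 the lowest chitosan value was on array 3. Calm3, 1 of the calmodulin genes, read 343, 474 and 110 in chitosan brains, against 815, 635 and 821 in mock brains (-1.53 ± 0.62, SE). Its second probe, also expressed, read 256, 679 and 82.8 in chitosan brains, against 186, 152 and 435 in mock brains (0.07 ± 0.82, SE), so the pair does not carry 1 direction. Bcas1, a gene of newly formed oligodendrocytes, read 148, 90.8 and 201 in chitosan brains, against 312, 392 and 310 in mock brains (-1.27 ± 0.44, SE), while its second expressed probe differed by 0.18 ± 0.28 (SE). Dck, deoxycytidine kinase, read 4360, 738 and 3558 in chitosan brains, against 4755, 11242 and 5174 in mock brains (-1.53 ± 0.66, SE), and chitosan array 2 and mock array 2 carried most of it.

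The smallest p values belonged to dimmer genes with little spread. Lass2 (now Cers2), which makes ceramides with very long chains, read 78.8, 81.6 and 83.9 in chitosan brains, against 42, 42.9 and 43 in mock brains (0.93 ± 0.07, SE, limma adjusted p = 0.0582). Its second probe was brighter, with 184, 118 and 257 in chitosan brains, against 175, 187 and 153 in mock brains (0.05 ± 0.40, SE), and did not follow. Grn, progranulin, a lysosomal and secreted protein, read 85.5, 90.8 and 86.4 in chitosan brains, against 50.1, 45 and 50.6 in mock brains (0.85 ± 0.09, SE, limma adjusted p = 0.138). Rogdi, whose human counterpart is mutated in Kohlschutter-Tonz syndrome, read 79.7, 85.5 and 97.3 in chitosan brains, against 48.6, 45 and 47.8 in mock brains (0.89 ± 0.10, SE). Mock values stood near the array medians in Grn and Rogdi and below them in the first probe of Lass2, and chitosan values stood above. The size of these differences is therefore a compressed one. Pnma3, a paraneoplastic antigen of neurons, differed by 0.49 ± 0.05 (SE), AI837181 by 0.83 ± 0.09 (SE), and 5830457O10Rik (now Chtf8), a replication clamp-loader partner, by 0.94 ± 0.10 (SE), and the other 2 probes of the last gene, both near the floor, by 0.00 and -0.01. Without chitosan array 3, limma called Lass2, Grn, Rogdi, Pnma3, AI837181 and 5830457O10Rik, each with an adjusted p of 0.0345.

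Several neuropeptide and hormone precursors were higher on every chitosan array. With 1 probe a gene, 9 of the 39 measured precursors had every chitosan array above every mock array (23.1%) and 2 had every one below, against 929 higher (5.58%) and 1088 lower (6.54%) of 16637 named genes. On the 6 arrays limma called 0 of them, and at an unadjusted p under 0.05 6 were higher and 1 lower. The median difference of the list was 0.02, beside -0.01 over all named genes. Penk1 (now Penk), the enkephalin precursor, read 95.9, 141 and 85.5 in chitosan brains, against 47.4, 50.4 and 45.7 in mock brains (1.13 ± 0.19, SE, limma adjusted p = 0.413). Trh, the precursor of thyrotropin-releasing hormone whose promoter is shown above, read 62.1, 60.1 and 75.7 in chitosan brains, against 39.9, 40.6 and 39.6 in mock brains (0.71 ± 0.09, SE, limma adjusted p = 0.244). Mock values of Penk1 and Trh lay near or below the array medians in all 3 brains.

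Nts, neurotensin, read 78.8, 79 and 56.5 in chitosan brains, against 45.2, 47.8 and 46.6 in mock brains (0.60 ± 0.13, SE). Gal, galanin, read 67.1, 57.7 and 46.8 in chitosan brains, against 41, 44 and 40.8 in mock brains (0.43 ± 0.12, SE). Cartpt, the CART precursor, read 167, 179 and 195 in chitosan brains, against 118, 137 and 155 in mock brains (0.40), and Tac1, for substance P, read 53.2, 68.5 and 47.8 in chitosan brains, against 44.2, 45 and 47.8 in mock brains (0.29). The Tac1 values of the 2 groups nearly touch. Npy and Sst, markers of interneurons, overlapped. Npy read 536, 689 and 422 in chitosan brains, against 468, 641 and 647 in mock brains, and Sst read 446, 542 and 199 in chitosan brains, against 346, 279 and 539 in mock brains. Without chitosan array 3, 13 of the 39 precursors were higher without overlap, beside 2535 of all named genes (15.2%), since fewer arrays separate more easily. The list was not recounted without any other array. With chitosan array 3 left out, limma called Penk1 (1.28, adjusted p = 0.0383), Trh (0.61, adjusted p = 0.0345), Nts (0.76, adjusted p = 0.0345) and Gal (0.57, adjusted p = 0.0397).

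Markers of brain regions were examined because many neuropeptides mark regions. Of 31 markers of striatal neurons, 7 were higher without overlap (22.6%) and 1 lower (3.23%), with a median of 0.11. Over all named genes these shares were 5.58% and 6.54%. They include Penk1, with Gng7, a G protein gamma subunit of medium spiny neurons, at 118, 148 and 129 in chitosan brains, against 84.3, 104 and 77 in mock brains (0.58 ± 0.22, SE). Hpca, the calcium sensor hippocalcin, read 5976, 4755 and 5976 in chitosan brains, against 3558, 4451 and 4542 in mock brains (0.41 ± 0.12, SE). Adcy5, the main striatal adenylyl cyclase, read 167, 176 and 149 in chitosan brains, against 131, 101 and 147 in mock brains (0.39 ± 0.29, SE). The dopamine receptor Drd2 overlapped, with 88.6, 72.1 and 136 in chitosan brains, against 70.3, 88.9 and 61.8 in mock brains. Whether the share of striatum differed between the samples was not tested, nor was the part of the choroid plexus markers given below in the neuropeptide and region results.

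Of 20 markers of olfactory bulb and migrating neuroblasts, 5 were higher without overlap (25%) and 1 lower (5%), with a median of 0.11. The shares of all named genes were 5.58% and 6.54%. Dcx, doublecortin, the microtubule protein of migrating neurons, read 84.6, 65.1 and 105 in chitosan brains, against 43.2, 48.8 and 48.9 in mock brains (0.83 ± 0.17, SE). Another probe of Dcx followed with 77.2, 56.6 and 77.2 in chitosan brains, against 50.1, 45 and 46.6 in mock brains (0.56 ± 0.13, SE), whereas the other 2, at the floor, differed by -0.08 and 0.08. Cd24a, a surface protein of neuroblasts, read 108, 63.6 and 148 in chitosan brains, against 48.6, 53.2 and 47.8 in mock brains (1.01 ± 0.28, SE). Dlx2, a transcription factor of forebrain interneuron precursors, read 79.7, 60.7 and 117 in chitosan brains, against 46.4, 50.4 and 45 in mock brains (0.81 ± 0.22, SE). Chitosan array 3 was the highest and array 2 the lowest chitosan array for Dcx, Cd24a and Dlx2 alike. Of 29 hypothalamic and thalamic markers, 5 were higher (17.2%) and 1 lower (3.45%) without overlap (median 0.00). The highest were Nnat and Zcchc12, a zinc finger protein of forebrain neurons. Zcchc12 read 133, 213 and 172 in chitosan brains, against 81.3, 88.9 and 81.1 in mock brains (1.02 ± 0.26, SE). Cortical and hippocampal pyramidal markers gave 1 higher and 1 lower of 28 (3.57% each).

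**Figure D3:**
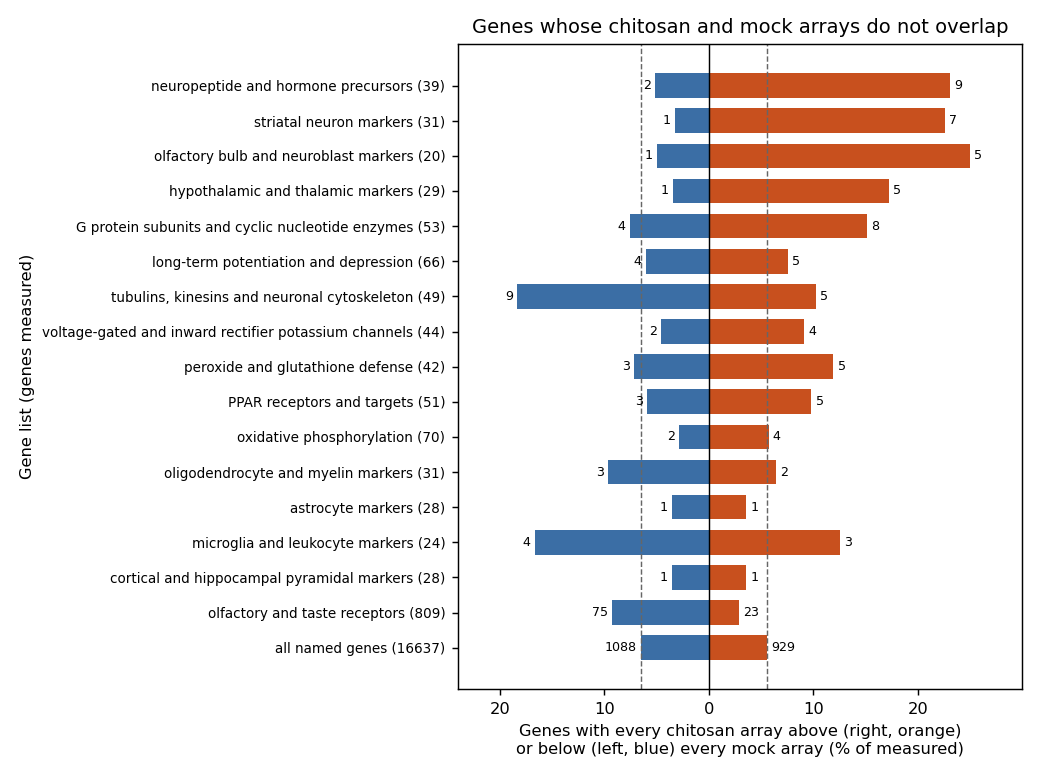
Share of the measured genes of each list with every chitosan array above every mock array (orange, right) or below it (blue, left), in percent of the genes measured, with the number of genes at each bar. The number in brackets is the genes measured, and the dashed lines are the shares over all 16637 named genes, 5.58% higher and 6.54% lower. Neuropeptides, striatal markers and neuroblast markers reach furthest to the right, and the tubulin and kinesin list furthest to the left.

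Among 53 G protein subunits and cyclic nucleotide enzymes, 8 were higher (15.1%) and 4 lower (7.55%) without overlap (median 0.06). The shares of all named genes were 5.58% and 6.54%. Gng4, a gamma subunit abundant in olfactory bulb, read 92.2, 89.7 and 75.7 in chitosan brains, against 50.1, 46.6 and 50.6 in mock brains (0.80 ± 0.11, SE). Its limma adjusted p was 0.253 on the 6 arrays and 0.0155 where all 12 arrays shared 1 estimate of the spread. Kcnd2, a potassium channel subunit of the dendritic A-type current, read 69.2, 62.5 and 74.2 in chitosan brains, against 46.4, 44 and 47.8 in mock brains (0.57 ± 0.08, SE), with an adjusted p of 0.303 on 6 arrays and 0.0218 on 12. Without chitosan array 3, the adjusted p was 0.0345 for Gng4 and 0.0443 for Kcnd2. A second Kcnd2 probe at the floor lay on the same side (0.15 ± 0.05, SE). Gng4, Kcnd2 and 1 unnamed probe were the 3 brain calls of that model. On the lower side stood Gnas, described above, and Rgs4, which speeds up GTP hydrolysis by G proteins, with 772, 626 and 777 in chitosan brains, against 1173, 1263 and 1062 in mock brains (-0.69 ± 0.28, SE).

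Genes of synaptic plasticity were mixed. In the list of long-term potentiation and depression, 5 of 66 were higher (7.58%) and 4 lower (6.06%) without overlap (median 0.01). These shares were near the 5.58% and 6.54% of all named genes. Ppp2r1a, the scaffold of protein phosphatase 2A, read 990, 909 and 1103 in chitosan brains, against 431, 596 and 521 in mock brains (0.96 ± 0.34, SE). Mapk3, the ERK1 kinase, read 193, 196 and 292 in chitosan brains, against 146, 147 and 118 in mock brains (0.71 ± 0.35, SE), and its second probe differed by 0.58 ± 0.19 (SE) with a narrow overlap. Dlgap3, a postsynaptic scaffold of striatal synapses, differed by 0.59 ± 0.11 (SE), and Cnih2, an AMPA receptor auxiliary subunit, by 0.72 ± 0.34 (SE). Arc, an activity-induced gene of dendrites, read 77.8, 79 and 77.2 in chitosan brains, against 113, 97.8 and 137 in mock brains (-0.56 ± 0.19, SE). Kcnn3, a calcium-activated potassium channel, differed by 0.70 ± 0.25 (SE) with its highest value, 123, on chitosan array 3.

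Cytoskeleton genes were found on both sides. Of 49 tubulins, kinesins and related genes, 9 were lower without overlap (18.4%) and 5 higher (10.2%), with a median of 0.02. Of all named genes, 6.54% were lower and 5.58% higher. The 9 and the 5 all belonged to the 24 expressed genes of the list, of which 15 had a difference below 0. The median of these 24 was -0.34, beside -0.002 over the 2784 expressed named genes. The largest rise of the list, 1.93, was that of Stmn3, given below, and came mostly from chitosan array 3. Beside Spag9 and Kif2a, the neurofilament heavy chain Nefh read 108, 93.8 and 113 in chitosan brains, against 186, 195 and 157 in mock brains (-0.77 ± 0.27, SE). Tubb5, a beta tubulin, read 888, 782 and 1042 in chitosan brains, against 1454, 1644 and 1356 in mock brains (-0.72), and Dync1h1, the dynein heavy chain, 230, 165 and 320 in chitosan brains, against 360, 448 and 352 in mock brains (-0.74). On the higher side were Klc2, a kinesin light chain, with 87.6, 79 and 106 in chitosan brains, against 66, 47.8 and 47.8 in mock brains (0.76), and Tubb2a, a neuronal beta tubulin, with 100, 145 and 85.5 in chitosan brains, against 74.2, 66.5 and 53.5 in mock brains (0.75). Beta tubulin genes are alike in sequence, so a probe may read more than 1 of them. Uchl1, a ubiquitin hydrolase abundant in neurons, read 1476, 1851 and 1782 in chitosan brains, against 928, 932 and 990 in mock brains (0.84 ± 0.21, SE), and Ndn, the imprinted gene for necdin, 1054, 767 and 1234 in chitosan brains, against 592, 712 and 342 in mock brains (0.93 ± 0.42, SE).

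Oligodendrocyte, astrocyte and microglia markers were found on both sides. Of 31 oligodendrocyte and myelin markers, 2 were higher (6.45%) and 3 lower (9.68%) without overlap (median -0.03). The shares of all named genes were 5.58% and 6.54%. Mobp, a protein of compact myelin, read 156, 145 and 113 in chitosan brains, against 186, 214 and 218 in mock brains (-0.59 ± 0.33, SE), Gjc3, a connexin of the same cells, differed by -0.61 ± 0.22 (SE), and Cnp, a myelin enzyme, by 0.38 ± 0.33 (SE). Astrocyte markers gave 1 higher and 1 lower of 28 (3.57% each). Mlc1, a protein of astrocyte endfeet, read 65.1, 64.2 and 56.5 in chitosan brains, against 46.4, 48.8 and 45.7 in mock brains (0.40 ± 0.08, SE, and limma adjusted p = 0.0401 without chitosan array 3). Of 24 microglia and leukocyte markers, 3 were higher (12.5%) and 4 lower (16.7%) without overlap. Among the higher were C1qc, a complement subunit (0.36 ± 0.15, SE), and the lysosomal Cd68 (0.24 ± 0.05, SE, near the floor). Also higher was Cd3g, a chain of the T cell receptor complex, bright on chitosan array 3 alone. It read 47.8, 47.9 and 744 in chitosan brains, against 46.4, 46 and 46.6 in mock brains. On the lower side was Cd3e, another chain of that complex (-0.23 ± 0.09, SE, near the floor). The endothelial gene Pecam1 read 56.2, 56.6 and 46.8 in chitosan brains, against 74.2, 66.5 and 66.2 in mock brains (-0.38 ± 0.10, SE). The interferon-responsive genes Ifitm3 (0.79 ± 0.17, SE) and Irf1 (0.27 ± 0.06, SE) were higher on every array. The interferon and MHC list as a whole had 2 higher (4.65%) and 3 lower (6.98%) of 43.

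Markers of choroid plexus, ependyma and meninges, the tissues that line the ventricles and cover the brain, lay mostly above 0. Of 25 measured, 19 had a difference above 0 and 3 were higher without overlap (12%) and 0 lower, with a median of 0.07. Of 16637 named genes, 7835 had a difference above 0, and 5.58% were higher and 6.54% lower without overlap. The median intensity of the list was 47.8, 52.3 and 45 in chitosan brains, against 46.4, 46 and 45 in mock brains. Ttr, transthyretin, the most characteristic product of the choroid plexus, read 61.5, 84.8 and 39.7 in chitosan brains, against 44.2, 44 and 44 in mock brains (0.42 ± 0.24, SE), and Clic6 read 62.6, 55.3 and 53 in chitosan brains, against 46.4, 50.4 and 47.8 in mock brains (0.24 ± 0.08, SE). Chitosan array 3 was the lowest array for Ttr. Without it, 14 of the 25 were higher without overlap (56%) and 0 lower, beside 15.2% and 14.9% of all named genes. The list was recounted without this array only, so the 56% rests on removing an array that was low for Ttr. It is no independent check on the 3 of 25.

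PPAR receptors and targets were of interest because the mice report PPAR activity. Of 51 measured, 5 were higher and 3 lower without overlap (9.80% and 5.88%), with a median of 0.04. The shares of all named genes were 5.58% and 6.54%. Of the 51, 13 were expressed, and of these 2 were higher and 1 lower without overlap. The receptors themselves were at the floor. Ppara read 47.8, 47.3 and 45 in chitosan brains, against 50.1, 47.8 and 47.8 in mock brains (-0.06 ± 0.05, SE), Ppard differed by 0.01 ± 0.06 (SE) and Pparg by -0.03 ± 0.04 (SE). A difference in these receptors was not detectable at this signal. Their partner Rxrg, the retinoid X receptor gamma, known from striatum, read 79.7, 67.2 and 94 in chitosan brains, against 45.2, 47.8 and 45.7 in mock brains (0.78 ± 0.13, SE, limma adjusted p = 0.409, and 0.0394 without chitosan array 3). Pltp, a phospholipid transfer protein, read 75, 83.1 and 56.5 in chitosan brains, against 50.1, 48.8 and 53.5 in mock brains (0.48 ± 0.14, SE, adjusted p = 0.0421 without chitosan array 3), and Acsl1, a long-chain acyl-CoA synthetase, differed by 0.25 ± 0.07 (SE). The brightest gene of the 3 that were lower was Scd2, the stearoyl-CoA desaturase of brain, with 1084, 1315 and 1251 in chitosan brains, against 1577, 1851 and 2445 in mock brains (-0.67 ± 0.22, SE).

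Energy metabolism genes were found on both sides, and the shares of oxidative phosphorylation genes moved when chitosan array 3 was left out. Of 70 oxidative phosphorylation genes, 4 were higher (5.71%) and 2 lower (2.86%) without overlap, beside 5.58% and 6.54% of all named genes, with a median of 0.02. With that array left out, 18 were higher (25.7%) and 5 lower (7.14%), with a median of 0.16, beside 15.2% and 14.9% of all named genes. No other array was left out for this count. Cyc1, a subunit of complex III, read 1522, 1463 and 2186 in chitosan brains, against 1042, 1272 and 1148 in mock brains (0.56 ± 0.23, SE), and Atp5c1, the gamma subunit of the ATP synthase, 2113, 1802 and 1199 in chitosan brains, against 2186, 2864 and 2864 in mock brains (-0.66 ± 0.23, SE). Cox11, an assembly factor of complex IV, differed by 0.50 ± 0.30 (SE) and Ndufb7 of complex I by 0.54 ± 0.21 (SE). Of 37 glycolysis and citrate cycle genes, 1 was higher (2.70%) and 2 lower (5.41%) without overlap. Without chitosan array 3 these were 4 (10.8%) and 5 (13.5%). Each share was below that of all named genes given above. Idh3a, a subunit of the citrate cycle's isocitrate dehydrogenase, read 67.5, 54.1 and 56.5 in chitosan brains, against 98.1, 101 and 111 in mock brains (-0.80 ± 0.14, SE). In insulin and IGF signaling 5 of 46 were higher and 5 lower without overlap (10.9% each). The receptor gene Insr read 59.4, 47.3 and 99.5 in chitosan brains, against 43.2, 46 and 41.8 in mock brains (0.58).

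Most 2-fold differences came from 1 array. Of the 76 probes whose brightest array was at least 3 times the next, the bright array was chitosan array 3 for 31, chitosan array 1 for 10 and chitosan array 2 for 7 of the higher probes, and mock array 1 for 24, mock array 3 for 3 and mock array 2 for 1 of the lower probes. The probe with the largest negative difference, that of Tnfrsf13c, the BAFF receptor of B cells, read 37.6, 44.1 and 38.7 in chitosan brains, against 28367, 41.8 and 37.6 in mock brains, and 28367 is the highest intensity of any array. Dst, the cytoskeletal linker dystonin, read 52.2, 47.3 and 50.6 in chitosan brains, against 23637, 46.6 and 47.8 in mock brains, and its second probe differed by 0.01 ± 0.10 (SE). Without mock array 1 these differences were 0.01 and 0.08. Chd9, a chromatin remodeler (7834), Aldh1a7, an aldehyde dehydrogenase (11242), and Tmem89 (9824) were likewise bright on mock array 1 alone, and Mmab, an enzyme of vitamin B12 metabolism, on mock array 3 (8985).

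On the higher side, Trap1, a mitochondrial chaperone, read 65.8, 9824 and 60.7 in chitosan brains, against 48.6, 47.8 and 47.8 in mock brains. The 2 other chitosan values also lay above mock, and without chitosan array 2 the difference was 0.40. Stmn3, a stathmin of neurons, read 635, 1037 and 11242 in chitosan brains, against 519, 438 and 584 in mock brains, and 0.67 remained without chitosan array 3. In 1500041N16Rik (now Wdr83), with 13240 on chitosan array 3, the difference without that array was -0.22. Pabpn1, G6pc3 and Oxsm were bright on chitosan array 1 alone (2532, 3004 and 2815), Pkp2 on chitosan array 2 (2933), and Mll5, Vgll4, Terf2ip and Cd3g on chitosan array 3 (3239, 1315, 848 and 744). Prdx2, a peroxiredoxin that removes hydrogen peroxide, belongs here: it read 49.6, 49.3 and 290 in chitosan brains, against 48.6, 47.8 and 48.9 in mock brains (0.88 ± 0.63, SE), and its second probe differed by 0.13 ± 0.05 (SE). In the list of peroxide and glutathione defense, 5 of 42 were higher (11.9%) and 3 lower (7.14%) without overlap. The shares of all named genes were 5.58% and 6.54%. The 5 higher include Gpx5, a glutathione peroxidase, at 48.6, 219 and 48.9 in chitosan brains, against 44.2, 46 and 47.8 in mock brains. Its rise came mostly from chitosan array 2. Sepw1 and Fth1, described above, stood at the ends of the list.

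**Figure D4:**
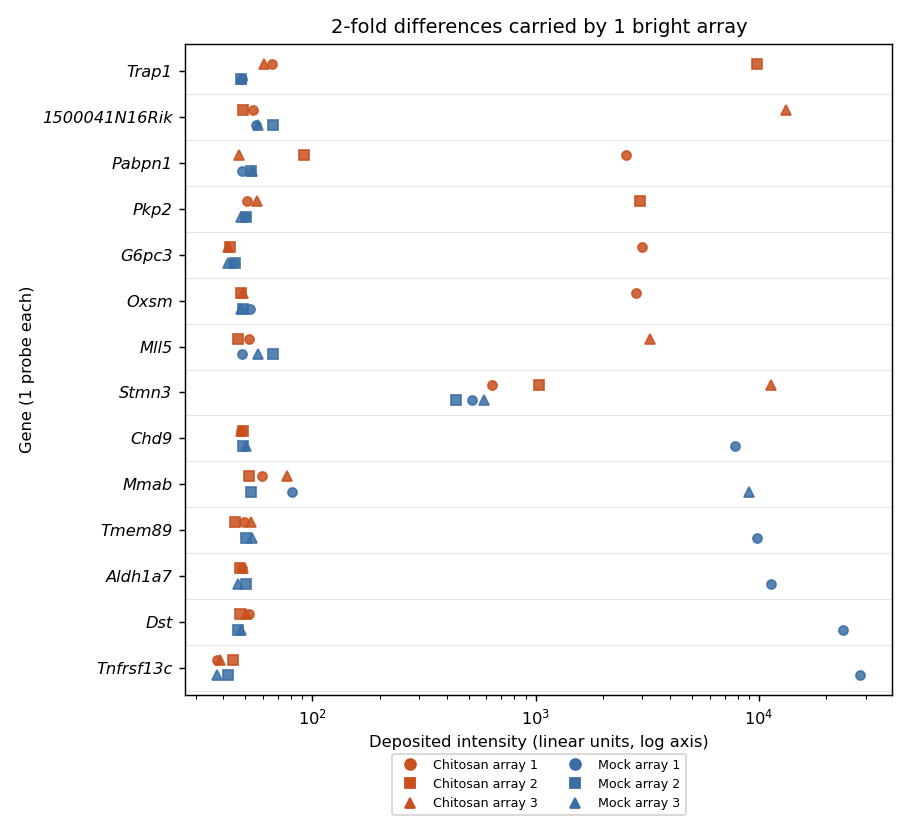
Intensity (linear units, log axis) of 14 genes whose 2-fold difference came from 1 bright array, 1 probe a gene. Orange symbols are the 3 chitosan arrays and blue symbols, just below them, the 3 mock arrays, with the same shape for the same array number. A single symbol stands far to the right in each row, up to 28367 for Tnfrsf13c on mock array 1, while the other arrays lie together, and only in Stmn3 and Trap1 do the other chitosan arrays also lie above all mock arrays by more than a few units.

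Of the genes measured by PCR in the study, Ghrl, the ghrelin precursor, read 53.2, 49.8 and 47.8 in chitosan brains, against 60.8, 50.4 and 48.9 in mock brains (-0.08 ± 0.09, SE). Apob, apolipoprotein B, differed by -0.01 ± 0.05 (SE), and the 3 probes of Xpo4, a nuclear export receptor, by -0.06, -0.06 and 0.08. All of these values lie near or below the array medians, apart from a Ghrl value of 60.8 on mock array 1, and a difference was not detectable at this signal.

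The brain difference was tested against the stomach difference as an interaction over the 12 arrays, which called 75 probes (0.251%) at an adjusted p under 0.05. The sources used here do not say whether brain and stomach arrays of 1 number share a mouse, and the test treats the 12 arrays as independent. Among the named brain genes, Nnat (interaction 1.93 ± 0.31, SE, limma adjusted p = 0.0341), Aes, Penk1, Rogdi, Gng4, Dlgap3 and Kcnd2 were higher with chitosan in brain, with stomach differences between -0.94 (Aes) and 0.03 (Kcnd2). Spag9 averaged 174 in chitosan brains and 1052 in mock brains, and 579 in chitosan stomachs and 146 in mock stomachs (interaction -4.52 ± 0.71, SE, adjusted p = 0.0286), and Rshl1 likewise was lower in brain and higher in stomach (-5.05 ± 0.85, SE, adjusted p = 0.0392). For Gnas, Kif2a, Daam2 and Lrrn3 the interaction was somewhat smaller in size, with -4.31, -3.72, -4.13 and -4.15, and its adjusted p was 0.0698, 0.0698, 0.0873 and 0.0905.

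**Figure D5:**
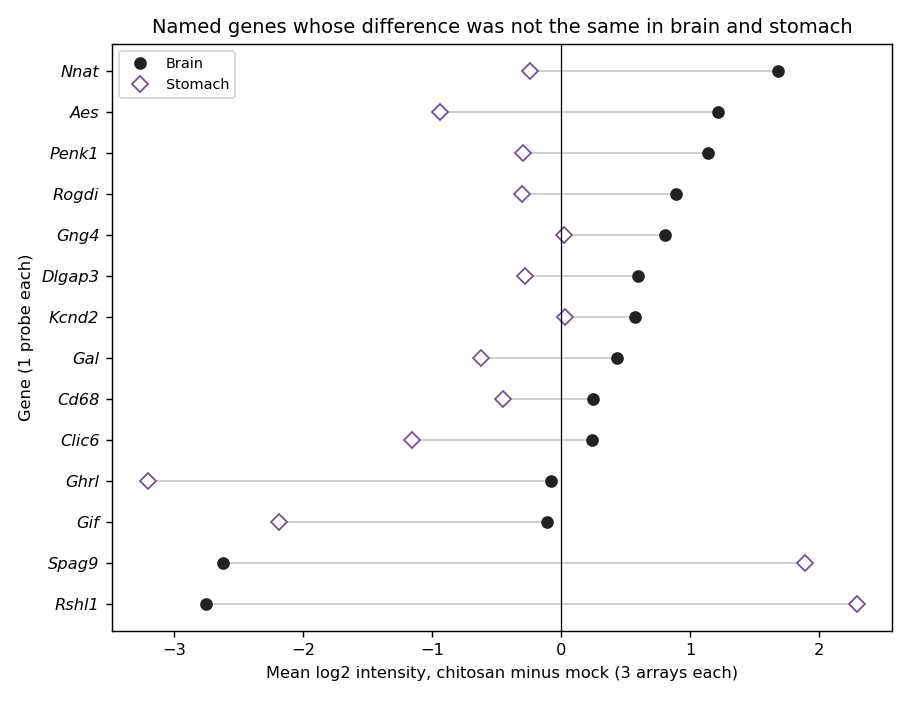
Mean log2 intensity, chitosan minus mock (3 arrays each), in brain (black circles) and stomach (open diamonds) for the 14 named genes whose interaction passed limma's adjusted p of 0.05. Brain values lie to the right of 0 from Nnat to Clic6, near 0 for Ghrl and Gif, and far to the left for Spag9 and Rshl1, whose stomach values lie to the right.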

How the data were processed

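Cy5-labeled RNA was hybridized to Mouse Whole Genome OneArrays. Before deposition, per the paper's methods, local background was taken off each spot, controls and spots with a negative signal-to-noise ratio were dropped, and limma was used to normalize, by a method not given in the sources used here. The deposited values are linear intensities with the same highest value, 28367, on each array, so a change of total signal cannot be seen.

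Log2 intensities were fitted in R 4.3.3 with limma 3.58.1 (eBayes with an intensity trend, Benjamini-Hochberg over 29922 probes) after a test on simulated data. With 3 arrays a group, an exact permutation test cannot go below 0.1, so none was run. Symbols are those of the annotation (21020 probes), with current names in brackets.

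The members and lists were chosen with earlier results of these data known. The naming rule took genes at 2-fold in every leave-out, the 10 largest differences each way without overlap among expressed probes, the 8 smallest p, the 8 largest each way at 2-fold with overlap, 4 genes at most of a list, and receptors and PCR genes of the study. Cartpt, Tac1, Npy, Sst, Drd2, Snap25, Tubb5, Tubb2a, Klc2, Dync1h1, Ttr and Mmachc were named after their values were seen. Lists used the brightest probe of a gene. Alternatives covered the model, scaling, floor, filter, definition of the fold change, the methods' t-test, a replicate block, a covariate, and each array left out.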

Additional observations from a re-analysis of the deposited data

Results flagged for a closer look

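For 14 of the named genes the chitosan difference was not the same in brain and stomach, by limma's interaction test over 12 arrays, taken as independent, with adjusted p between 0.0187 and 0.0464. The interaction, brain difference minus stomach difference on the log2 scale, was negative for Rshl1 (-5.05) and Spag9 (-4.52), which were lower in brain and higher in stomach with chitosan. It was positive with the larger part in brain for Nnat (1.93), Aes (2.15), Penk1 (1.43), Rogdi (1.19), Gng4 (0.78), Dlgap3 (0.87) and Kcnd2 (0.54). It was positive with the larger part in stomach for Ghrl (3.13), Gif (2.08), the gene of gastric intrinsic factor, Clic6 (1.40), a chloride channel protein, Gal (1.06) and Cd68 (0.70). Ghrl averaged 325 in chitosan stomachs and 2970 in mock stomachs, and Gif 247 and 1121 in the same order, with brain values at the floor. With 1 brain array left out, the calls over all probes were 8, 74 and 212 without chitosan arrays 1, 2 and 3, and 9, 16 and 29 without mock arrays 1, 2 and 3, beside 75 with all.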

How the results depend on the processing

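The 6 brain arrays gave 0 calls. There were 3 calls with all 12 arrays in 1 model, 2 without the intensity trend, 4 after subtracting 30, 464 with the number of distinct intensities as a covariate, and between 0 and 221 when 1 array was left out, with 221 without chitosan array 3 and 1 without mock array 1. With the replicate block the count was 0, and 62 and 48 probes stayed at 2-fold. Deviations from the group means correlated by -0.00, -0.35 and -0.32 between same-numbered arrays, and by -0.08 to 0.34 between the others. Deviations within a group sum to 0, which constrains these correlations, so they cannot decide whether the numbers pair the mice. The 62 higher and 48 lower probes at 2-fold became 360 and 121 after subtracting 30, 36 and 22 with the mean of a gene's probes, 398 and 323 with that covariate, 109 and 76 as a ratio of linear means, 22 and 17 with medians, and 127 and 16 as the mean ratio of same-numbered arrays. Leaving out 1 array gave 59 to 117 higher, with 95 and 117 without chitosan arrays 1 and 2, and 30 to 74 lower, with 30, 74 and 73 without mock arrays 1, 2 and 3. Probes not overlapping numbered 806 higher and 1188 lower among those brighter than the median, 272 and 334 among those above 2 times the lowest intensity, 978 and 1085 as gene means, and 2358 to 3954 and 2904 to 4721 with 1 array left out. Interaction calls were 35 among probes above 2 times the lowest intensity, 962 with the covariate, and 8 to 212 with 1 array left out. The causes were not tested.

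Of the single genes, the sign turned with the covariate for Dck (0.049), Acsl1 (-0.080), Ndufb7 (-0.20), Ghrl (0.17), Apob (0.27), Dync1h1 (0.13) and Gif (0.045), and with medians for Dst (0.083), 1500041N16Rik (-0.076), G6pc3 (-0.055), Mll5 (-0.13) and Ppard (-0.025). Leave-outs ranged between -4.77 and 0.015 for Tnfrsf13c, -4.41 and 0.084 for Dst, -0.22 and 3.83 for 1500041N16Rik, -0.049 and 3.03 for G6pc3, -0.036 and 2.90 for Oxsm, -0.21 and 2.85 for Mll5, -0.14 and 0.017 for Ghrl, -0.058 and 0.022 for Apob, -0.041 and 0.041 for Ppard, -0.28 and 0.069 for Npy, -0.33 and 0.40 for Sst, and -0.17 and 0.19 for Snap25. Beside -0.038 on the 6 arrays, Sst gave 0.028 as a ratio of linear means, 0.37 with medians and 0.26 as the mean ratio of same-numbered arrays. Beside -0.018, Snap25 gave 0.0048 with the mean of a gene's probes, 0.063 with medians and 0.059 as that mean ratio. Of 2265 values of single genes under the alternatives, 51 passed limma's test that had not in the 6 arrays. Second probes were not followed on their own. Near the floor the signal over background limits what can be read.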
